A study of Mus musculus with 5 samples.

Results

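The open chromatin of the normal anterior forelimb bud is described here from the peak lists of 2 control mouse embryos at stage E11.5. Peaks of both lists on chromosomes 1 to 19 that shared at least 1 bp were merged, and a merged region was kept when it held a peak of each list. This gave 44930 regions, out of 77319 merged regions found in either control and 85522 found across all 5 libraries of the series. The other 3 libraries are mutants and were not used. Both controls had the genotype Prx+/+;Smarcc1c/c, meaning that they carried a conditional allele of Smarcc1, which encodes a core subunit of the BAF chromatin remodelling complex, and no Cre recombinase. Each library came from an embryo genotyped on its own, at 40 to 48 somites, and used 50K cells of the anterior part of its pair of forelimb buds.

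ATAC-seq uses a transposase that cuts and tags DNA where nucleosomes leave it exposed, so peaks mark promoters, enhancers and other open sites. In the limb bud, mesenchyme beneath a thin ectoderm is patterned by Sonic hedgehog from the posterior margin, by fibroblast growth factors (FGFs) from the apical ridge and by WNT and BMP signals. The anterior part lies farthest from the source of Sonic hedgehog, and there the repressor form of GLI3 prevails. Much of limb patterning is known to run through enhancers that lie far from the genes they act on.

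The deposited values are peak positions, with the authors' fold enrichment over background at each summit. The fold was computed within each library, so the strength of a region is given as the mean of its percentile within each list, from 0 to 100. Control 1 had 68009 peaks covering 46.7 Mb and control 2 had 59252 covering 39.4 Mb. Read numbers are unknown. The folds and p-values fit a constant background of 4.77 fragments per position in control 1 and 6.42 in control 2. The unit of these counts is called a fragment here, although the peak-calling options that set it are unknown. The weakest peaks held 13 and 16 fragments at their summits and the median peaks held 22 and 27. If these units were independent, counting error alone gives the median peaks coefficients of variation of 21.3% and 19.2%. A site without a peak may therefore be open below this level. In bulk tissue, fewer cells with an open site and less opening per cell cannot be told apart.

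Promoter sequences are shown for starts with and without a region, to set their CpG content side by side. The 200 bases before the start of 8 genes are printed from RefSeq on GRCm38.p6, the coordinates of mm10, 5′ to 3′ on the strand of the gene, with each CpG dinucleotide in capitals. The first 4 are limb genes whose start lay in a region of both controls: Etv5 (chr16:22438369-22438568, minus strand), a transcription factor gene induced by FGF; Gli3 (chr13:15463523-15463722, plus strand); Ptch1 (chr13:63565736-63565935, minus strand), the Hedgehog receptor; and Lhx2 (chr2:38351108-38351307, plus strand), a factor of limb outgrowth.
Etv5: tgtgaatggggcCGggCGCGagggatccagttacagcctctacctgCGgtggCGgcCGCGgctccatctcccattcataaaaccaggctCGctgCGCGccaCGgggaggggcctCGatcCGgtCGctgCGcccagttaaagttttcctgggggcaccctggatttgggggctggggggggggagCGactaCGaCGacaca
Gli3: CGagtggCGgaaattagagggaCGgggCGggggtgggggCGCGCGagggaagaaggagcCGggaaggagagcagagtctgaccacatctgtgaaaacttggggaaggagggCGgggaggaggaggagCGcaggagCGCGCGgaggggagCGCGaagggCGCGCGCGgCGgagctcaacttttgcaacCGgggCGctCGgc
Ptch1: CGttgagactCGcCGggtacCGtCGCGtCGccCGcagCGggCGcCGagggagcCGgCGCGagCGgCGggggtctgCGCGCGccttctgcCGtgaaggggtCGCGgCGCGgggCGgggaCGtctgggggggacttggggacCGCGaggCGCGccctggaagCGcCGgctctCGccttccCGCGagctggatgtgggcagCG
Lhx2: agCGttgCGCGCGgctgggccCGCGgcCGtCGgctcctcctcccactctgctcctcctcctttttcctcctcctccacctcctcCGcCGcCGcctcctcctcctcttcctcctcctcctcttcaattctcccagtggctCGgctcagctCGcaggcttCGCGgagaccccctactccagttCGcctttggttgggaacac
The other 4 belong to genes of other tissues or later stages and held no region. Alb (chr5:90460670-90460869, plus strand) is the gene for serum albumin and Hba-x (chr11:32276400-32276599, plus strand) for an embryonic globin. Myog (chr1:134289804-134290003, plus strand) is the gene for the muscle differentiation factor myogenin and Sycp1 (chr3:102936101-102936300, minus strand) for a protein of meiotic chromosomes.
Alb: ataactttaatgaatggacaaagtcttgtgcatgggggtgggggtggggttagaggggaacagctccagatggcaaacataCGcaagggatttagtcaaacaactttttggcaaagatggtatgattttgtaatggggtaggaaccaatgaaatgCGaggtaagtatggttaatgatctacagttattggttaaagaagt
Hba-x: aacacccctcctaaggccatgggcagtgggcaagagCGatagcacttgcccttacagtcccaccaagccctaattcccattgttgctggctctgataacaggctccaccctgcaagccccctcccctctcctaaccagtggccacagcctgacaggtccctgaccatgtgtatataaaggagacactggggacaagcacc
Myog: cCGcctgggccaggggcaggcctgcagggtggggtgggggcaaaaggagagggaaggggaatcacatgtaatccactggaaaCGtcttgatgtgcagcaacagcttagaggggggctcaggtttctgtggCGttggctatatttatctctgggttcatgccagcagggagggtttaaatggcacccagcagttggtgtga
Sycp1: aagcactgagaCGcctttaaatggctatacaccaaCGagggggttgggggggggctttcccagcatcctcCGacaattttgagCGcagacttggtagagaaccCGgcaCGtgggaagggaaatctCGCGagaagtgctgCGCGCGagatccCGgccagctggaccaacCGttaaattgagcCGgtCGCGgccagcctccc
The printed stretches of Etv5, Gli3, Ptch1 and Lhx2 held 18, 23, 36 and 16 CpG dinucleotides. Those of Alb, Hba-x and Myog held 2, 1 and 3. Sycp1 departed from this order, with 16 CpG dinucleotides and no region.

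Peaks of the control libraries overlapped most at strong sites. Of the peaks of control 1, 69.2% (47043) overlapped a peak of control 2, and 80.7% (47829) of the peaks of control 2 overlapped one of control 1. In the weakest 10% of each list the shares were 25.2% and 43.7%, and in the strongest 10% they were 99.99% and 100%. Unshared peaks had a median percentile of 22.3 in control 1 and 16.5 in control 2. Only 1 of the 20966 unshared peaks of control 1 and 0 of the 11423 of control 2 were in the strongest 10% of the list. The strongest unshared peaks had folds of 11.3 and 7.55. Just inside the rule, a region with the lowest strength had folds of 2.60 and 2.56 and lay 68.1 kb from the nearest end of Tpra1. Over the shared regions, the percentiles of both libraries had a Spearman rank correlation of 0.846 and a Pearson correlation of 0.790, across regions that are not independent replicates. The rank correlation was 0.926 among regions at gene ends and 0.724 among the rest. The percentile differed between the libraries by a median of 7.58 points, and the summits by a median of 81 bp. Order at the top differed more than presence did. Of the 1000 shared regions ranked highest by each control, 623 were the same.

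**Figure D1:**
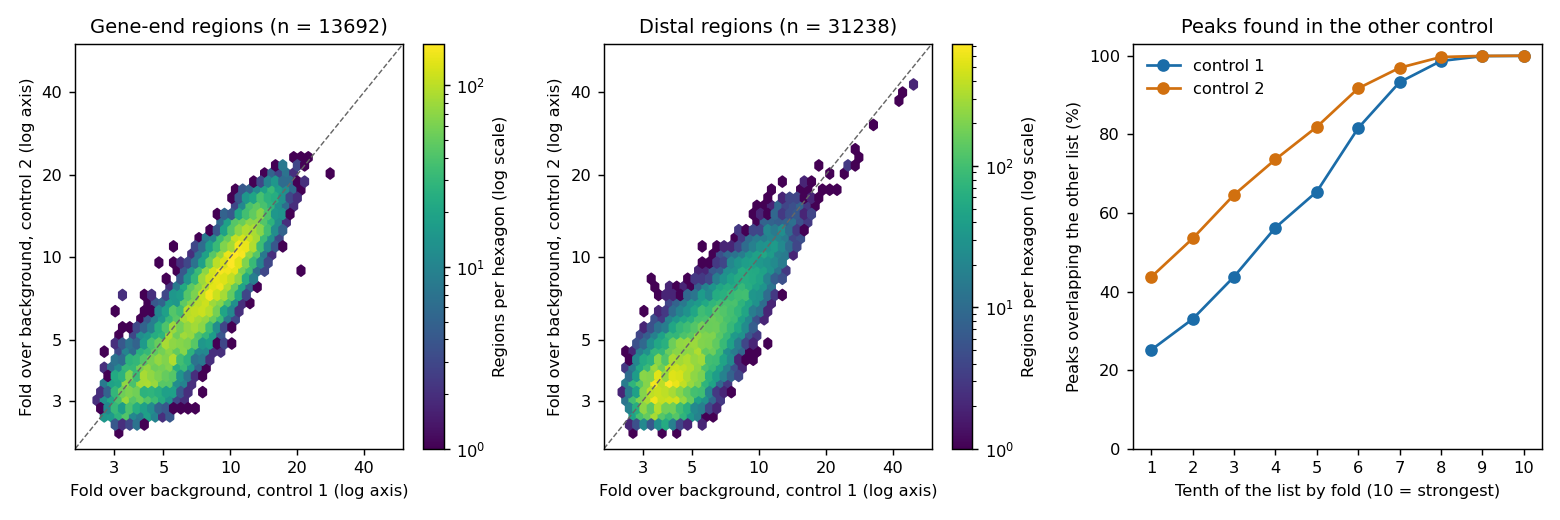
The left and middle panels plot the fold over background of each shared region in control 1 (x) against control 2 (y) on log axes, for 13692 gene-end and 31238 distal regions, with color for the number of regions per hexagon and a dashed line of equality. The right panel plots, for each decile of a list by fold, the share of peaks that overlap the other control, which rises from 25.2% and 43.7% in the weakest decile to 99.99% and 100% in the strongest.

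Gene ends held the minority of all regions and most of the strongest ones. A gene-end region is one within 1 kb of either outermost end of a RefSeq protein-coding gene, and the others are called distal, inside a gene body or between genes. There were 13692 gene-end regions (30.5%), 16368 in gene bodies (36.4%) and 14870 between genes (33.1%). Gene-end regions had a median strength of 85.2 (quartiles 68.0 and 93.2) and a median width of 1321.5 bp. Distal regions had a median strength of 53.1 (quartiles 36.1 and 70.3) and a median width of 647 bp. The difference of 32.1 points had the same direction in each library, with median percentiles of 86.5 against 59.5 in control 1 and 84.4 against 52.5 in control 2. In the strongest decile 82.6% were gene-end regions, and in the weakest decile 11.48%.

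Distance from a gene made little difference to the strength of distal regions. The median strength was 53.9 for the 9373 distal regions up to 10 kb from a gene end, 52.6 for those at 10 to 25 kb, and 53.9 for the 6198 regions more than 100 kb away. Of the distal regions, 1492 held a listed start of a coding gene within 1 kb, since genes with several promoters have starts inside their outermost ends. These had a median strength of 79.2. A further 1284 lay at the start of a non-coding gene only, with a median of 60.9. The remaining 28462 distal regions, 91.1%, had a median strength of 52.2.

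Openness sat at gene starts rather than at 3′ ends. Of 16457 genes whose strand is known from the promoter table, 62.0% (10204) had a region within 1 kb of the start and 12.4% (2037) within 1 kb of the 3′ end. Where no other gene end lay within 3 kb, 6.72% of 10030 3′ ends had a region, against 64.7% of the starts of the same genes. Summits formed a peak on each side of the start. In the bin from 50 to 100 bp downstream, control 1 had 1449 summits and control 2 had 1493. In the bin of 50 bp just upstream of the start they had 299 and 564, and farther upstream, from 200 to 150 bp, 744 and 873. The far bins held medians of 42.5 and 41. The balance differed between the libraries, with 39.4% of summits within 500 bp upstream of the start in control 1 and 48.3% in control 2.

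**Figure D2:**
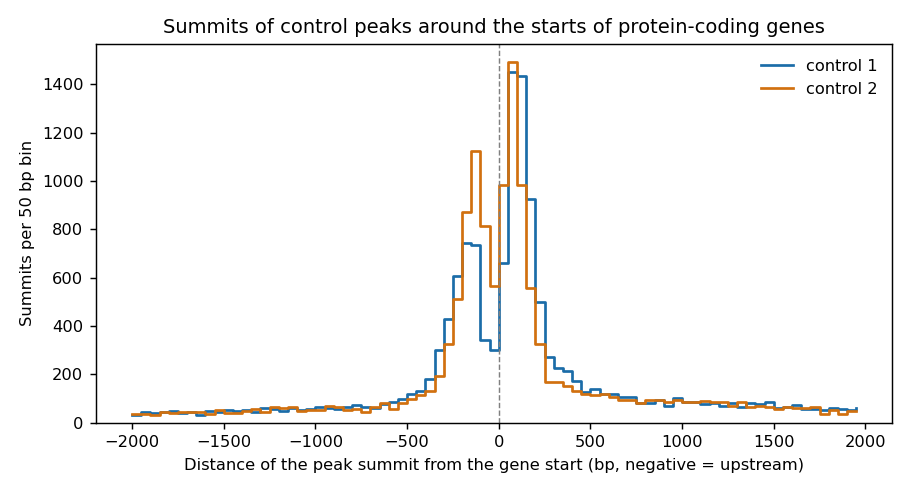
Number of peak summits per 50 bp bin (y) by distance from the start of protein-coding genes in bp (x, negative values upstream), for control 1 and control 2. Both lines have a maximum 50 to 100 bp downstream, with 1449 and 1493 summits, a lower maximum upstream and a dip of 299 and 564 summits just before the start.

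CpG content went with openness over all reference promoters. A window of 300 bases, from 250 before to 50 after the start, was compared with the regions for 20085 starts of 16457 genes. Of these windows 12326, or 61.4%, overlapped a region. Windows with a region had a median of 22 CpG dinucleotides and a GC content of 62.3%, and windows without had 3 and 47.7%. The share of windows with a region was 3.18% at 0 to 2 CpG dinucleotides, 15.7% at 3 to 5, 47.1% at 6 to 10 and 86.4% at 11 to 15. It reached 97.2% at 31 or more. CpG-rich windows without a region were few, 384 of 9239 windows (4.16%) with at least 16. Among them were Ddx4, an RNA helicase of germ cells, with 38, Dazl, a germ cell RNA-binding protein, with 28, and Fgf4, a growth factor gene of the apical ridge, with 28. The brain patterning gene Pax6, with 18 and 16 at its windows, and Gad1, which encodes an enzyme of GABA synthesis, with 21, were also among them.

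**Figure D3:**
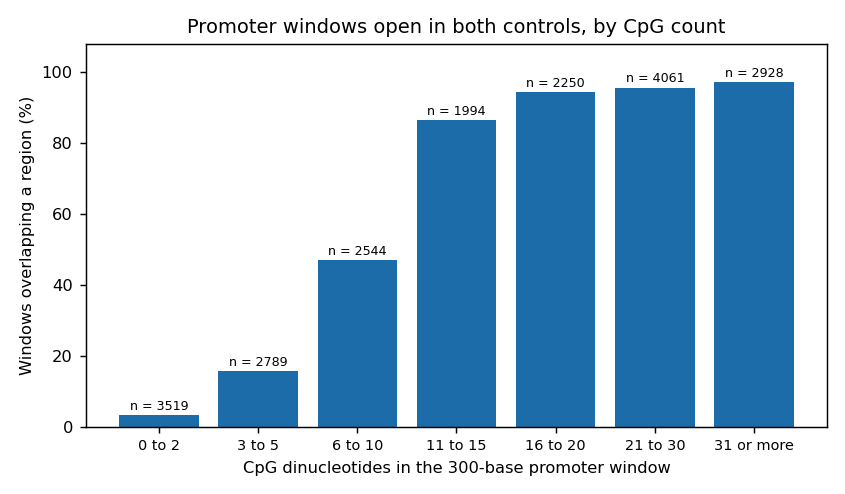
Share of reference promoter windows of 300 bases that overlap a region of both controls (y, percent) by the number of CpG dinucleotides in the window (x), with the number of windows above each bar. The share is 3.18% for windows with 0 to 2 CpG dinucleotides and 97.2% for those with 31 or more.

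Short motifs, searched on both strands, followed the same contrast. GGGCGG, which SP and KLF factors bind and which itself holds a CpG, was in 68.2% of windows with a region and 13.5% of those without, and in 47.0% of all windows. The ETS motif CCGGAAG was in 17.7% and 2.68% (11.9% of all), the CREB motif TGACGTCA in 3.31% and 0.696% (462 windows in all), and the NRF1 motif in 2.09% and 0.168% (1.34% of all). Of the 180 windows with the YY1 motif, 98.3% had a region, against 61.4% of all windows. The ETS, CREB, NRF1 and YY1 motifs each hold a CpG as well. TATAAA, the TATA box, went the other way, at 5.995% of windows with a region and 23.4% of those without (12.7% of all). The motif of homeodomain factors, TAATTA, was in 2.12% and 8.22% (4.48% of all), and the GATA motif AGATAA in 5.09% and 16.7% (9.57% of all). CCAAT, bound by NF-Y, was as frequent in windows with a region (37.7%) as without (38.7%). Among windows with a region, however, its share was 29.0% in the weakest 25% by strength and 52.8% in the strongest 25%. The GLI motif GACCACCCA was in 35 windows, 0.187% of those with and 0.155% of those without a region. A match is a description of these letters and does not show binding.

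Of 20665 protein-coding genes on these chromosomes, 13277 had a gene-end region, which is 64.2% and the level against which each gene list below is read. A region was also assigned to whichever gene had the closest end, up to 100 kb from the summit, although this need not be the gene it acts on. By this rule 14704 genes (71.2%) had an assigned region, 9395 (45.5%) had a distal one, and 359 (1.74%) had 10 or more. A further 5112 genes (24.7%) had neither a gene-end nor an assigned region. Of the 34 gene lists, 24 had a larger share of members with a gene-end region than all genes. No test was made of any list, since the lists were chosen with results of these data known. A gene-end region need not lie at the start of the gene. Of the 255 listed genes with both a gene-end region and a reference promoter window, 60 had their strongest gene-end region away from every window of their own. In 30 of 331 listed genes with a window the strongest open start lay in a region called distal, and 9 genes without a gene-end region had an open window.

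**Figure D4:**
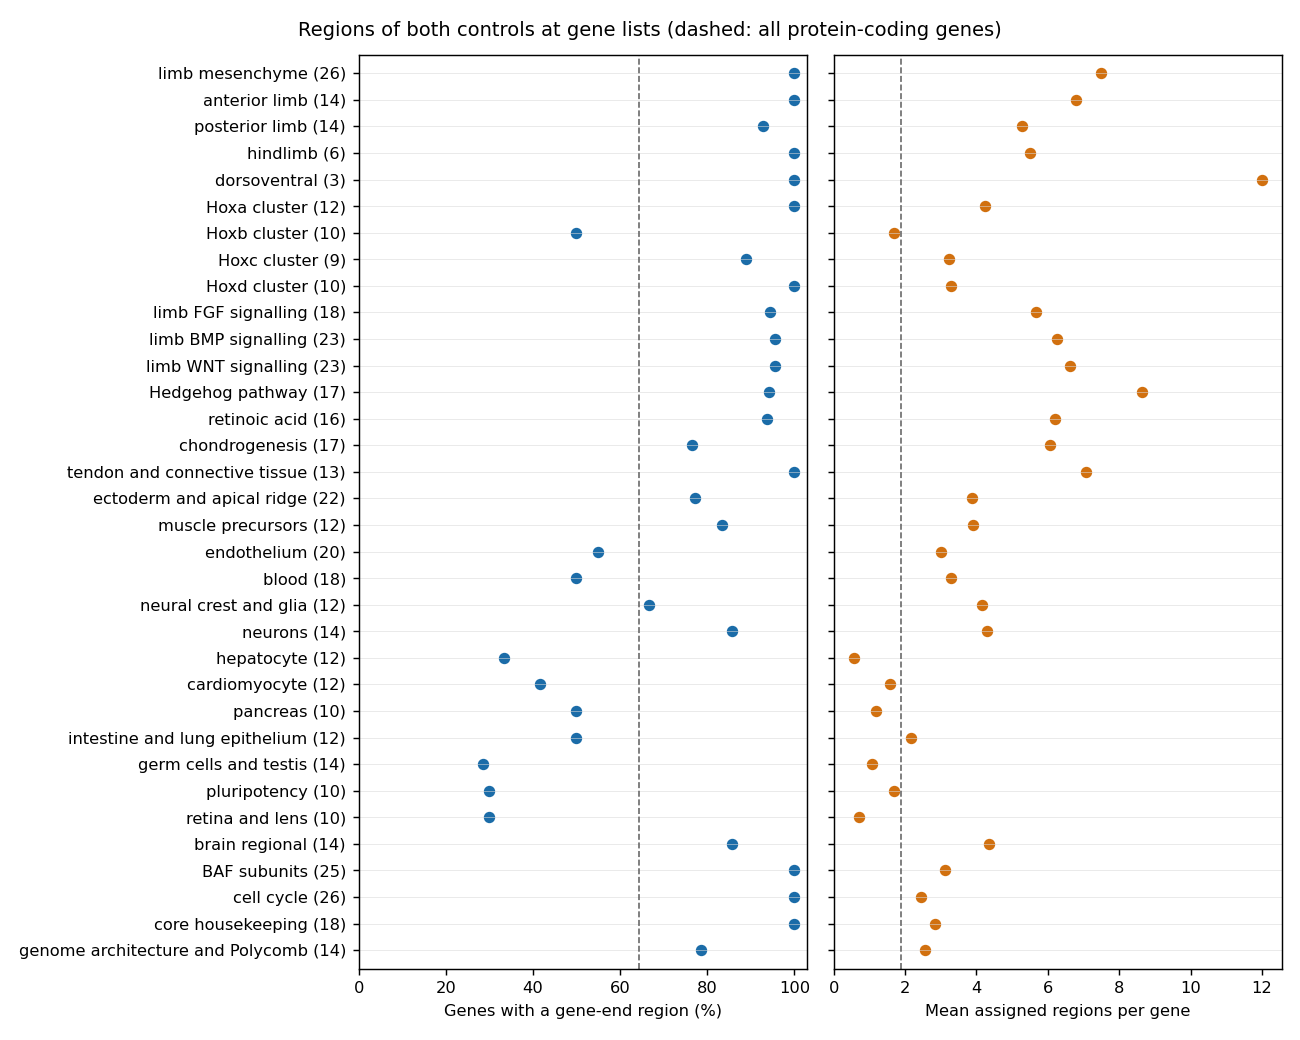
For each gene list (number of members on chromosomes 1 to 19 in brackets), the left panel shows the percent of genes with a gene-end region and the right panel the mean number of assigned regions per gene, with dashed lines for all protein-coding genes (64.2% and 1.87). Limb lists other than Hoxb lie to the right of both lines, and lists of liver, germ cell, and retina and lens genes to the left of both. Lists of neurons, brain regions, neural crest and glia, and muscle precursors also lie to the right of both.

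All 26 listed markers of limb mesenchyme had a gene-end region. This does not set the list apart, since 10 of the 34 lists, among them cell cycle and housekeeping genes, had one at all measured members. The 26 genes had a median of 6.5 assigned regions a gene against 1 over all genes. Their territories, the stretches nearer to them than to another gene within 100 kb, were also longer, with a median of 173 kb against 44.3 kb. Per 100 kb of territory the medians were 3.89 regions for the list and 2.22 over all genes. The gene-end regions of the list were broad, with a median of 2439 bp against 1439 bp over all gene-end regions taken per gene. Their median strength of 83.5 was below that of all such genes, 88.5. Prrx1, the homeobox gene whose regulatory sequence is used to drive Cre in limb mesenchyme, had gene-end folds of 9.54 and 9.30 in controls 1 and 2. Snai2, which encodes a repressor of epithelial genes, had the strongest gene-end region of the list, at 16.6 and 13.9. Twist1, needed for limb outgrowth, had 9.19 and 8.89. Tbx5, the gene that starts the forelimb, was at the low end with 2.95 and 3.64 at a gene end. It had no reference promoter window, so whether that end is its start is unknown. Even so, 23 regions were assigned to Tbx5. The strongest of its 22 distal regions had folds of 6.42 and 5.79. Lhx2, whose promoter is printed above, had the same order, because its strongest start (10.4 and 10.9) lies inside its outermost ends, where the folds were 3.81 and 4.18.

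Genes of the anterior limb were open in both controls, and so were most genes of the posterior limb. All 14 anterior genes had a gene-end region, as did 13 of 14 posterior genes. In the anterior list Etv5 had folds of 14.2 and 15.2, Gli3 13.7 and 12.7 with 21 assigned regions, and Irx5, an Iroquois homeobox gene of proximal and anterior skeleton, 11.96 and 10.5. Pax9, a paired box gene of the anterior margin, was weakest at 3.12 and 2.69, with 8 distal regions. The strongest of these, at 7.28 and 7.01, holds the reference promoter of Pax9 itself. Alx4, a repressor of posterior identity, had 6.24 and 5.12. Shh was the posterior gene without a gene-end region, and it had 3 distal regions, the strongest at 3.64 in both libraries. Hand2, which acts before Shh at the posterior margin, had a gene-end region at 6.94 and 7.95 and 14 assigned regions. The late posterior genes Hoxd12 and Hoxd13 share a region of 3604 bp with folds of 7.46 and 7.28. Grem1, which encodes a secreted BMP antagonist of the central and posterior bud, had 7.46 and 5.25 and no other assigned region.

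A gene without a gene-end region was not always without a peak. Over all genes, 745 had a gene-end peak in 1 list alone or at separate places in the lists. Shh had such a peak in control 1 within 1 kb of a gene end, with a fold of 3.47. Fgf4 had a peak at its promoter window in control 2, with 3.23. Among genes of other cell types, Myog had peaks of 3.12 in control 1 and 2.83 in control 2 that did not overlap each other or its promoter window. The same held for Hba-x, with 2.77 in control 1 and 2.69 in control 2. Sox10, of glia, had up to 3.64 in control 1, and Krt5 had 2.69 in control 2. The lowest folds in the lists were 2.43 in control 1 and 2.29 in control 2, and the peaks of Shh and Sox10 were at percentiles 29.9 and 36.9 of control 1. The highest fold of such a peak at a listed gene was 4.85, in control 1 at Plvap, a gene of endothelium.

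Genes of hindlimb identity and of the dorsoventral axis had regions too. All 6 hindlimb genes had a gene-end region, with a median strength of 61.2. Isl1 was above this median, with a strength of 83.1 and folds of 8.84 and 5.79. Pitx1, which sets hindlimb identity, had folds of 5.72 and 3.50 and Tbx4 had 4.85 and 5.25. These gene-end folds of Tbx4 were above those of Tbx5 in both libraries, and those of Pitx1 in control 1 only. Tbx5 had no reference promoter window, so its start could not be compared. The promoter window of Tbx4, in another region, had 3.47 and 3.50. Lmx1b, which sets dorsal identity in mesenchyme, had 7.63 and 4.58 at its 3′ end, 4.51 and 3.91 at its start, and 27 assigned regions. The ectodermal genes Wnt7a (dorsal) and En1 (ventral) had 4.85 and 4.31, and 4.68 and 4.99, with 3.47 and 3.23 at the promoter window of En1. Open chromatin at these genes does not show that they are transcribed.

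**Figure D5:**
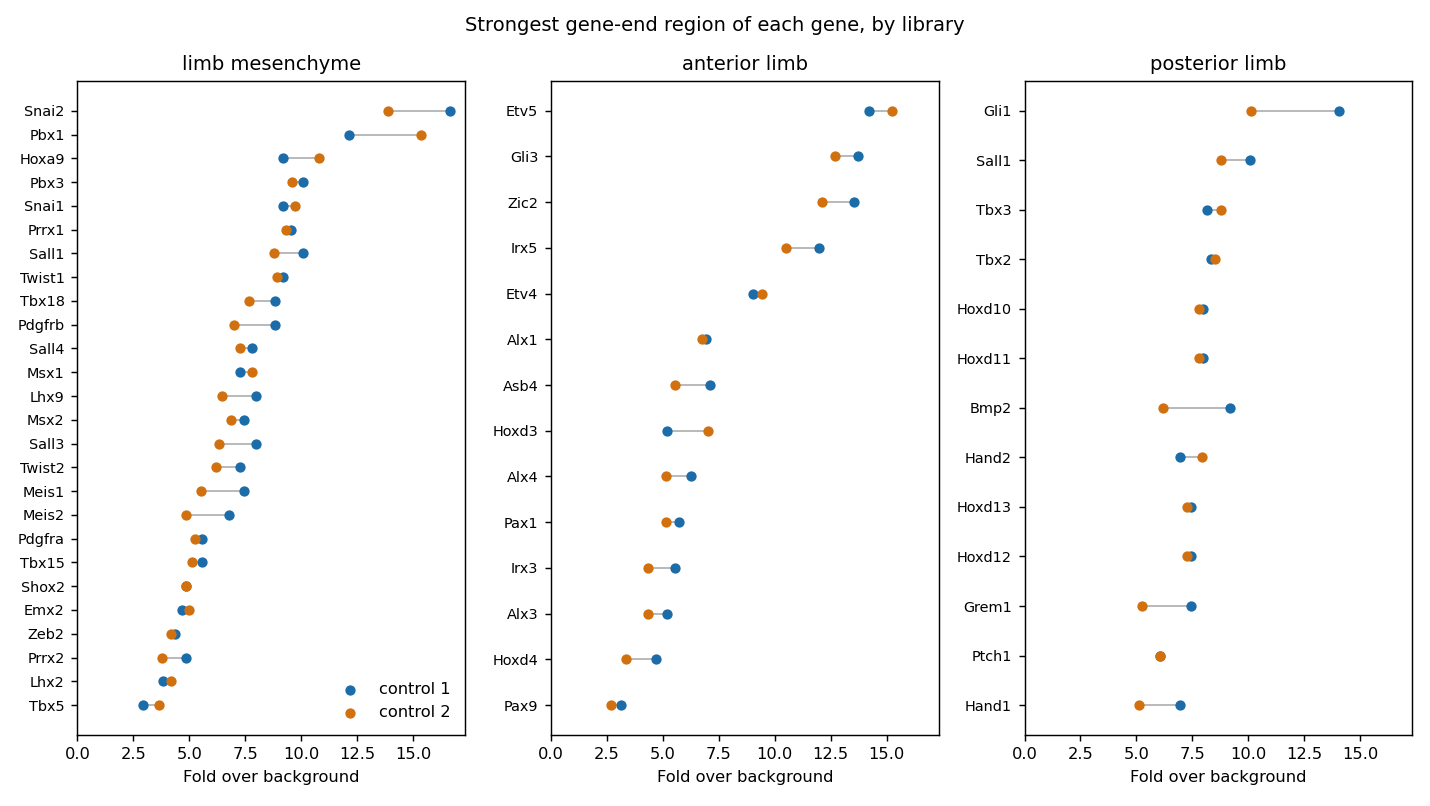
Fold over background (x) of the strongest gene-end region of each gene (y) in control 1 and control 2, joined by a line, for limb mesenchyme, anterior limb and posterior limb genes. Snai2, Etv5 and Gli1 lead the panels, Tbx5 and Pax9 are at the bottom of theirs (the start of Pax9, in another region, is not drawn), and Shh, with no gene-end region, is not drawn.

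The Hox clusters differed in openness. All 12 genes of the Hoxa list (with Evx1) and all 10 of the Hoxd list (with Evx2) had a gene-end region, with median strengths of 80.8 and 80.3. These are the clusters that pattern the limb axis. By gene-end region, Hoxa9 was strongest in Hoxa at 9.19 and 10.8 and Hoxa2 weakest at 4.33 and 2.83. Their promoter windows lay in other regions, at 7.80 and 8.35 and at 3.12 and 3.50. Hoxa13, a gene of the hand plate, had 6.94 and 6.06 and 12 assigned regions. Hoxd10 and Hoxd11 share a region of 5069 bp, at 7.98 and 7.82, and Hoxd9 had 8.50 and 7.82. In the Hoxc list 8 of 9 genes had a gene-end region, with a median strength of 66.1. Hoxc5 and Hoxc6 were strongest, at 8.50 and 6.60 and at 7.80 and 6.47, and Hoxc12 was at 4.33 and 2.83. In Hoxb 5 of 10 genes had one, a share below that of all genes, with a median strength of 48.7. The strongest of them, Hoxb4, had 5.03 and 4.58, and Hoxb7 had no region. The number of genes is small and neighbours share regions, so these counts are not independent.

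Among FGF genes, the strongest gene-end regions were at feedback targets. Of 18 listed genes 17 had a gene-end region. The targets Etv5, Spry2 (14.4 and 14.96) and Dusp6 (13.4 and 15.2) had strengths of 99.1, 99.1 and 98.8, and the Dusp6 region, at 6074 bp, was among the broad ones. Spry2 encodes an inhibitor and Dusp6 a phosphatase of the pathway. Fgf10, the mesenchymal ligand, had 9.19 and 8.22, with 9 assigned regions, and its strongest distal region inside the gene reached 9.88 and 9.84. The ridge ligands Fgf8 (6.42 and 4.58), Fgf9 (6.24 and 4.58) and Fgf17 (4.85 and 5.12) were lower, and Fgf4 had no region of both lists. The receptors Fgfr1 and Fgfr2 had 8.67 and 7.68, and 9.54 and 7.28.

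Most BMP genes were open as well. Of 23 genes 22 had a gene-end region, the exception being Chrd, for the antagonist chordin. The promoter window of Chrd, inside its outermost ends, was open at 5.03 and 3.77, and all 16 BMP genes with a window had an open one. The targets Id1, Id2 and Id3, which encode inhibitors of basic helix-loop-helix factors, had 12.1 and 11.7, 11.4 and 10.4, and 9.71 and 11.99. The regions of Id1 and Id2 were 6480 and 6754 bp wide. The inhibitory Smad6 had 12.3 and 11.3 with 17 assigned regions. Of the ligands Bmp7 had 11.3 and 10.4 with 17 regions, Bmp2 9.19 and 6.198, and Bmp4 5.55 and 3.77. Gdf5, a gene of forming joints, was at 3.64 and 3.77.

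In the WNT list 22 of 23 genes had a gene-end region. The receptors Fzd7 (12.1 and 11.99) and Fzd1 (11.4 and 12.8) were strong, and Wnt5a, a ligand that drives outgrowth, had 6.76 and 6.06. Wnt3a had no gene-end region, with 2 distal ones. The nuclear factors Tcf7l1, Tcf7l2 and Lef1 had 13, 19 and 13 assigned regions. Axin2, a feedback target, had 12.1 and 10.8 at its reference promoter, which lies inside its outermost ends, and 2.95 and 2.96 in its gene-end region. A region at chr11:109011505-109012175, 61.1 kb from Axin2 and overlapping the non-coding gene Gm36876, had 27.0 and 22.5, the highest folds of any distal region assigned to a listed gene. It was only 671 bp wide and ranked 8 by strength among all distal regions. Whether it lies in a stretch that collects excess reads was not tested.

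In the Hedgehog pathway 16 of 17 genes had a gene-end region, with a mean of 8.65 assigned regions against 1.87 over all genes. Territories were long here too, with a median of 158 kb against 44.3 kb. Per 100 kb of territory the medians were 5.91 regions for the list and 2.22 over all genes. The transcription factor genes Gli1 (14.0 and 10.1), Gli2 (11.96 and 9.57) and Gli3 were all strong at a gene end. They differed in distal regions, with 1 for Gli1, 28 for Gli2 and 20 for Gli3. The strongest distal region of Gli2 had 12.3 and 12.7. Ptch1 had 6.07 and 6.06 at its gene end and 11.3 and 10.9 at the internal start printed above. The coreceptor gene Gas1 had 13.7 and 13.6, with 12 assigned regions, and Sufu, a negative regulator, 12.8 and 11.99. The ligand gene Ihh, of later cartilage, was near the bottom at 3.12 and 2.83.

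Of 16 genes of retinoic acid, which patterns the proximal limb, 15 had a gene-end region. Rdh10, an enzyme of its synthesis, had 13.2 and 12.7. The degrading enzymes Cyp26a1 (3.81 and 2.83) and Cyp26b1 (4.16 and 3.64) were weak. The promoter window of Cyp26b1 held no region, and the gene had distal regions of up to 8.32 and 6.198. The receptor gene Rxra had 18 assigned regions. Rarb had none at its gene ends and 7 distal ones, of which the region at its reference promoter had 6.76 and 7.68.

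Several limb genes had distal regions as strong as most starts. They were picked from the strongest distal regions of all listed genes. These regions held no listed start, so they stood apart from internal promoters. Such regions were not particular to limb genes. Others were assigned to Ywhaz (14.6 and 11.2), Gad1 (8.67 and 10.5) and Itga2b (9.36 and 9.43). Near Bmp2, a region 3.49 kb from the gene at chr2:133565855-133567785 had folds of 11.3 and 11.05. A region 8.50 kb from Gli2, chr1:118824795-118827071, had the 12.3 and 12.7 given above, and another 71.6 kb inside Gli2, chr1:118981469-118983478, had 9.71 and 8.35. Inside Tcf7l1, a repressor of the WNT pathway, chr6:72710483-72712323 had 14.7 and 13.7. At Gas1 a region 90.3 kb away, chr13:60266898-60270162, had 10.6 and 10.8. The region of 974 bp at chr8:57353247-57354220, 29.4 kb from Hand2 and overlapping the non-coding gene Hdnr, had 9.36 and 9.84. Near Sp8, a zinc finger gene of the apical ridge, chr12:118854388-118855566 had 12.1 and 9.03, while the gene end itself had 5.37 and 5.12. In each of these the folds of both libraries lay above the median fold of gene-end regions, 7.98 in control 1 and 7.28 in control 2. The regions were picked by strength, so this follows from the choice and is no separate result.

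Genes of differentiation were partly open. In the chondrogenesis list 13 of 17 genes had a gene-end region. Sox9, the gene that starts cartilage formation, had 8.32 and 7.82, and its partners Sox5 and Sox6 had 6.24 and 5.25, and 6.76 and 6.33. The promoter window of Sox5 itself held no region. Of the matrix genes Col2a1 had 7.28 and 6.06, Col11a1 12.1 and 16.4, and Acan 3.12 and 3.64. Runx2, needed for bone, had no gene-end region and 2 distal regions, the stronger at 3.99 and 5.79. All 13 measured genes of tendon and connective tissue had a gene-end region, from Col3a1 and Osr1 (5.03 in control 1 for each) to Egr1, an immediate-early gene, at 16.5 and 16.8. Scx, the tendon regulator, had 7.63 and 5.12.

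Markers of the other cell types that a dissected bud holds were open to differing degrees. Of 22 genes of ectoderm and apical ridge, 17 had a gene-end region, with a median strength of 66.1. Krt5, for a basal keratin, had no region of both lists, and Krt14 had 3.64 and 3.23 at a gene end but none at its promoter window. The surface adhesion gene Epcam had 5.55 and 3.91. For muscle precursors, which migrate into the bud, the count was 10 of 12. The migration genes Lbx1 and Met had 3.81 and 3.77, and 6.07 and 4.18. Of the muscle determination genes Myod1 had 3.64 and 2.83, Myf5 had no gene-end region, and Myog had no region of both lists. In endothelium 11 of 20 and in blood 9 of 18 had a gene-end region, both shares below that of all genes. The vessel genes Kdr and Fli1 had 7.63 and 5.39, and 6.24 and 5.39. Among the vessel genes without a gene-end region were Tek, Tie1, Cdh5, Pecam1 and Emcn. Of 12 endothelial genes with a promoter window, 6 had an open one. The globin genes Hba-x, Hba-a1, Hbb-y and Hbb-bt had no region. Klf1, of red cell precursors, had 13.0 and 9.57, but its own promoter window held no region. For neural crest and glia the count was 8 of 12, with Sox10 at no region, and for neurons 12 of 14. The part of these cells in the bulk values was not tested.

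Markers of most tissues outside the limb had gene-end regions at shares below that of all genes. The counts with a gene-end region were 4 of 12 for hepatocytes, 5 of 12 for cardiomyocytes, 5 of 10 for pancreas, 6 of 12 for intestine and lung epithelium, 4 of 14 for germ cells and testis, and 3 of 10 for each of pluripotency and retina and lens. Distal regions did not follow this order. A distal region was assigned to 8 of 12 genes of intestine and lung epithelium, 7 of 10 of pluripotency, 7 of 12 of cardiomyocytes and 8 of 14 of germ cells, shares above the 45.5% of all genes, but to 3 of 12 of hepatocytes, 2 of 10 of pancreas and 4 of 10 of retina and lens. Some of the gene-end regions lay at a neighbouring gene. By the promoter window of the gene itself, 0 of 12 germ cell genes, 0 of 8 retina and lens genes and 2 of 11 hepatocyte genes had a region, against 17 of 18 limb mesenchyme genes. The windows of these lists differed in CpG content too, with medians of 8.5, 3.5, 4 and 18.5 CpG dinucleotides. Of the hepatocyte windows 15.4% had a region, and of all windows with 3 to 5 CpG dinucleotides 15.7%. The part of CpG content in the contrast between lists was not tested. The germ cell windows included 5 with at least 11 CpG dinucleotides, none open, where 94.2% of all such windows were. Regulators of brain regions did not follow, with 12 of 14 at gene ends and 6 of 11 by window. Of the large families of receptors, 2 of 1100 olfactory and 2 of 352 vomeronasal receptor genes had a gene-end region. Without these families the share over all genes was 69.1%.

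Cell cycle, housekeeping and BAF genes had strong gene-end regions at the median. Single genes departed from this, such as the BAF subunit gene Actl6b at 3.81 and 3.37. All 26 cell cycle genes, all 18 measured housekeeping genes and all 25 BAF subunit genes had a gene-end region, with median strengths of 93.0, 96.0 and 91.8. A distal region was assigned to 10 of 26, 9 of 18 and 15 of 25 of them. For ribosomal proteins of the cytosol the count was 73 of 78, for those of mitochondria 74 of 77 and for the proteasome 36 of 38. Genes of guidance and cell contact differed, at 27 of 27 for semaphorins and plexins and 18 of 18 for the Notch pathway, but 16 of 26 for integrins and 22 of 57 for clustered protocadherins. Of 14 genes of genome architecture and Polycomb 11 had a gene-end region, while all 12 with a promoter window had an open one.

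The genes with the most assigned regions had long territories. Prdm16, which encodes a zinc finger regulator, had 31, Gins2 30, Trabd2b 30, Gli2 29 and Septin9 29, followed by Lmx1b with 27, Casz1 and Gse1 with 26, and Mvb12b and Ssbp3 with 24. Genes with 10 or more regions had a median territory, the stretch nearer to them than to another gene within 100 kb, of 215 kb against 44.3 kb over all genes. Of the 29 distal regions of Gins2, a replication gene, 28 lay inside its neighbour Gse1. Per length, Hoxa13 was among the densest of the genes with 10 or more regions. It had 34.4 regions per 100 kb of territory against a median of 2.22 over all genes. The Hoxa list as a whole had a median of 31.1, so this density was not particular to Hoxa13.

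Among gene-end regions, Sp1, for the factor that binds GGGCGG, led with folds of 22.02 and 23.2 at chr15:102404831-102407552. It was followed by Evi5l (20.5 and 23.3), M6pr (21.3 and 21.96), Srgap2 (20.1 and 22.5) and Ppp2r1a (20.3 and 22.2). The strongest distal regions exceeded them. The region at chr17:39842874-39848952 had 48.9 and 41.8 and overlaps Rn18s-rs5, listed as a pseudogene. A region at chr2:98666091-98667449, more than 1 Mb from Lrrc4c, had 50.8 and 41.6. The 5 regions above a fold of 30 in both libraries, these included, lay more than 20 kb from the nearest gene end. Lists of stretches that collect excess reads in this build were not used here, and the part of such stretches in these folds was not tested. The broadest regions were at Sfi1 (15898 bp), Mroh2a (13084 bp), Gse1 (8408 bp), Tnrc18 (8244 bp) and Tmem259 (7766 bp).

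A few regions ranked far apart in the controls. The largest falls from control 1 to control 2 were near Casc1 (6.94 and 2.69, at percentiles 81.9 and 5.06), Bod1l (6.24 and 2.56), Gm46320, Tcf4 and B4galnt4. The largest rises were near Tmem54 (2.95 and 6.33), Rhobtb1, Brinp2, Gm40469 and Golt1b (3.29 and 8.08, at percentiles 22.3 and 87.5). With 1 library on each side these differences have no replicate check. Across chromosomes, assigned and unassigned regions together numbered 1.37 a gene on chromosome 7 to 2.81 on chromosome 18.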

How the data were processed

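Per the labels, the series holds ATAC-seq libraries from anterior forelimb pairs of single embryos, 2 controls and 3 mutants; only the controls were used. Per the submitters' processing notes, bcl2fastq 2.20.0, Bowtie2 2.3.5, MACS2 and the build mm10 were used. The MACS2 version and options, the treatment of duplicates and any shift of reads to the transposase cut were not given in the sources used here; kept duplicates would raise pileups, and a missing shift would move borders by a few bases.

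The authors deposited 1 list of peaks for each library and did not pool libraries. Deposited columns give positions and the summit in bp (other values), a display score that was not used, and a ratio, the fold enrichment over background. The last deposited values are the −log10 p-value of the summit and its −log10 q-value. The deposited folds all lay on a grid, within 0.02 of a step, of (fragments + 1) over (background + 1) with 1 background per library, and the Poisson p-values of that grid differed from the deposited −log10 p-values by at most 5.57e-06 and 6.04e-06. The lowest deposited −log10 q-value was 1.57 in both lists.

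Peaks on chromosomes 1 to 19 were merged by an overlap of at least 1 bp, and annotated with 20665 RefSeq protein-coding genes of GRCm38.p6 by symbol and position. Strand was known for 16457 genes, through the promoter table. Exons and a genome sequence were not used here. Of 479 list symbols 474 matched; Tnmd, Hprt, Pgk1, Smc1a and Stag2 are on chromosome X. Python 3.11.15, pandas 2.3.3, numpy 2.4.6, scipy 1.17.1 and matplotlib 3.10.9 were used. Merging and annotation were tested on simulated peak lists. No p-value was computed, since the files hold no counts and regions are not replicates. The groups are separate embryos, and replicate numbers follow sample order.

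The members and gene lists were chosen with earlier results of these data known. All list members could be named, together with the genes nearest the 10 strongest gene-end and distal regions, the 5 broadest, the weakest, the 10 genes with the most regions and the 5 regions that changed rank most in each direction; an item that this rule names is not reported here. Peak threshold, overlap, list length, gene-end window, strength measure, assignment and single libraries were varied.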

Additional observations from a re-analysis of the deposited data

Results flagged for a closer look

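Peaks on the sex chromosomes were outside the regions described above and were flagged as signal in data not otherwise used. Control 1 had 950 peaks on chromosome X and 16 on chromosome Y. Control 2 had 1081 on chromosome X and 16 on chromosome Y. No group of 4 or more samples was available in which to look for a library apart from the rest.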

How the results depend on the processing

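The direction of the main contrast, stronger regions at gene ends than elsewhere, was kept under every alternative run. The strength gap of 32.1 points was 33.4 with peaks of a −log10 q of at least 5, 30.2 with at least 10, 28.3 where peaks had to overlap by 50% of each, 32.6 with lists of equal length, 33.4 and 28.6 with gene-end windows of 500 bp and 2.5 kb, and 37.7 with the lower percentile. With 1 control alone it was 39.8 to 40.3. The number of regions was 19506 at a −log10 q of at least 10, and 59252 to 68009 in a single list. The gene-end share was 37.6% and 53.1% at the stricter q-values, 33.4% with the stricter overlap, 27.6% and 36.8% with the windows of 500 bp and 2.5 kb, 24.4% with starts of the promoter table (chosen after seeing the data), and 23.5% to 26.2% in single lists. The share of genes with a gene-end region was 61.4% and 54.8% at the stricter q-values, 60.9% with the stricter overlap, 61.8% and 68.4% with the windows of 500 bp and 2.5 kb, 69.1% without olfactory and vomeronasal receptors (added after seeing the data), and 65.4% to 66.5% in single lists. The rank correlation was 0.858 and 0.855 at the stricter q-values, 0.873 with the stricter overlap, 0.847 at equal length and 0.846 with percentiles of q. The overlap of control 1 was 79.9% at a −log10 q of at least 10 and 55.0% with the stricter overlap, where that of control 2 was 63.1%. The CpG difference between windows with and without a region was 19, and 18 at the strictest q-value. Between 17 and 27 lists exceeded the share of all genes, 24 as reported. Over the lists, 254 of 272 recomputed counts of members with a gene-end region stayed within 1.5 times, but only 182 of 272 counts of assigned regions did. Of the 90 that moved, 34 were at a −log10 q of at least 10 and 28 without control replicate 2. No paired analysis was possible because only 1 group was described and replicate numbers follow sample order. The cause of these shifts was not tested. Read depth is unknown, which limits any statement on absent regions.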

Other observations

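Genes for non-coding RNAs had regions within 1 kb of an end at shares that ran from near that of protein-coding genes to near 0. Of 391 tRNA genes 228 (58.3%) had one, against 30.3% of 12408 long non-coding RNA genes and 22.1% of 1136 miRNA genes. For small nucleolar RNA genes the share was 8.86%, for pseudogenes 3.76% and for the V segments of antigen receptor genes 0.508%. Many of these genes lie inside or beside protein-coding genes, whose regions were not set apart.

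Gene families of other kinds fell between the limb lists and the receptors of the nose. Forkhead genes had a gene-end region in 34 of 41 cases and Sox genes in 16 of 18, with 3 and 4 assigned regions a gene at the median. Ephrins and their receptors had 19 of 21. Zinc finger genes named Zfp had 291 of 360, with a median end strength of 88.8. Keratins had 11 of 49, keratin-associated proteins 1 of 56 and defensins 2 of 70.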
